A study of Danio rerio with 20 samples.

Results

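The genes described are 42 listed genes of sterol, fatty acid and triglyceride synthesis, followed in whole zebrafish larvae exposed to a mixture of persistent organic pollutants or to perfluorooctanesulfonic acid (PFOS). The list was drawn up with earlier results of these data known. Rows were matched to the listed genes by symbol, without use of measured differences. A transcript row belonged to a member when its name, less the transcript number, was a listed symbol. The row with the highest mean over the 20 libraries stood for the gene. This found 41 of the 42 genes among 22851 genes in the table. The symbol acly has no row of its own, and the table carries aclya and aclyb instead. The sterol branch held 24 genes, and the fatty acid and triglyceride branch 17, including the regulators srebf1 and mlxipl.

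Larvae of the wild-type AB strain were exposed from 6 to 96 hours post fertilization (hpf) and collected at 96 hpf. The POP70 and POP10 groups received a pollutant mixture modelled on blood levels in a Scandinavian population, at 70 and 10 times those levels. The PFOS70 and PFOS10 groups received PFOS alone, at the amount it has in the mixture of the same number, and the Control group received 0.1% dimethyl sulfoxide (DMSO), the solvent. A solvent level is labelled for Control alone. Each group had 4 libraries, each from a pool of 10 larvae, and nothing in the labels says that these pools were of different clutches, so the p-values speak only for the spread among the pools. In such bulk samples, fewer cells of a type and less RNA per cell cannot be told apart.

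Cholesterol is built from acetyl-CoA through mevalonate, isoprenoid diphosphates and squalene, and then through a series of sterol intermediates. Fatty acids are built from the same acetyl-CoA by way of malonyl-CoA, lengthened and desaturated, and joined to glycerol to make triglyceride. In vertebrates the transcription factors Srebf2 and Srebf1 drive these pathways, Srebf2 mainly the sterol genes and Srebf1 mainly the lipogenic ones. Scap escorts the Srebf proteins, and Insig proteins hold them back when sterol is plentiful. Liver and intestine are major sites of both pathways, and young larvae also draw on yolk lipid.

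Levels are in log2 RPM, reads on a scale shared by all libraries. They take no account of transcript length, so they were not compared between genes. The scaling totals of the libraries were 8572287 to 11243574 reads, so 1 RPM stood for 8.57 to 11.2 reads. The 4 PFOS10 libraries lay at 49.4 to 61.5 on the first principal component (39.6% of the variance), against -14.7 to 21.9 in Control and -45.0 to 9.81 over the other exposed libraries. The labels name no processing batch, and a batch shared by these 4 libraries cannot be told apart from the PFOS10 exposure. Libraries of 1 group correlated at 0.972 to 0.988 across genes. Of the 41 genes found, 40 reached 0 log2 RPM in at least 4 libraries and were tested, all 24 of the sterol branch and 16 of the fatty acid branch. The exception was mlxipl, the carbohydrate-responsive transcription factor of lipogenesis, with 0 to 9 reads in any library and a mean of -1.26 log2 RPM, too few reads to show a difference. Differences were tested with limma over 19289 genes and called at a Benjamini-Hochberg adjusted p under 0.05. The plot of deviations by library shows the 40 tested genes.

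**Figure D1:**
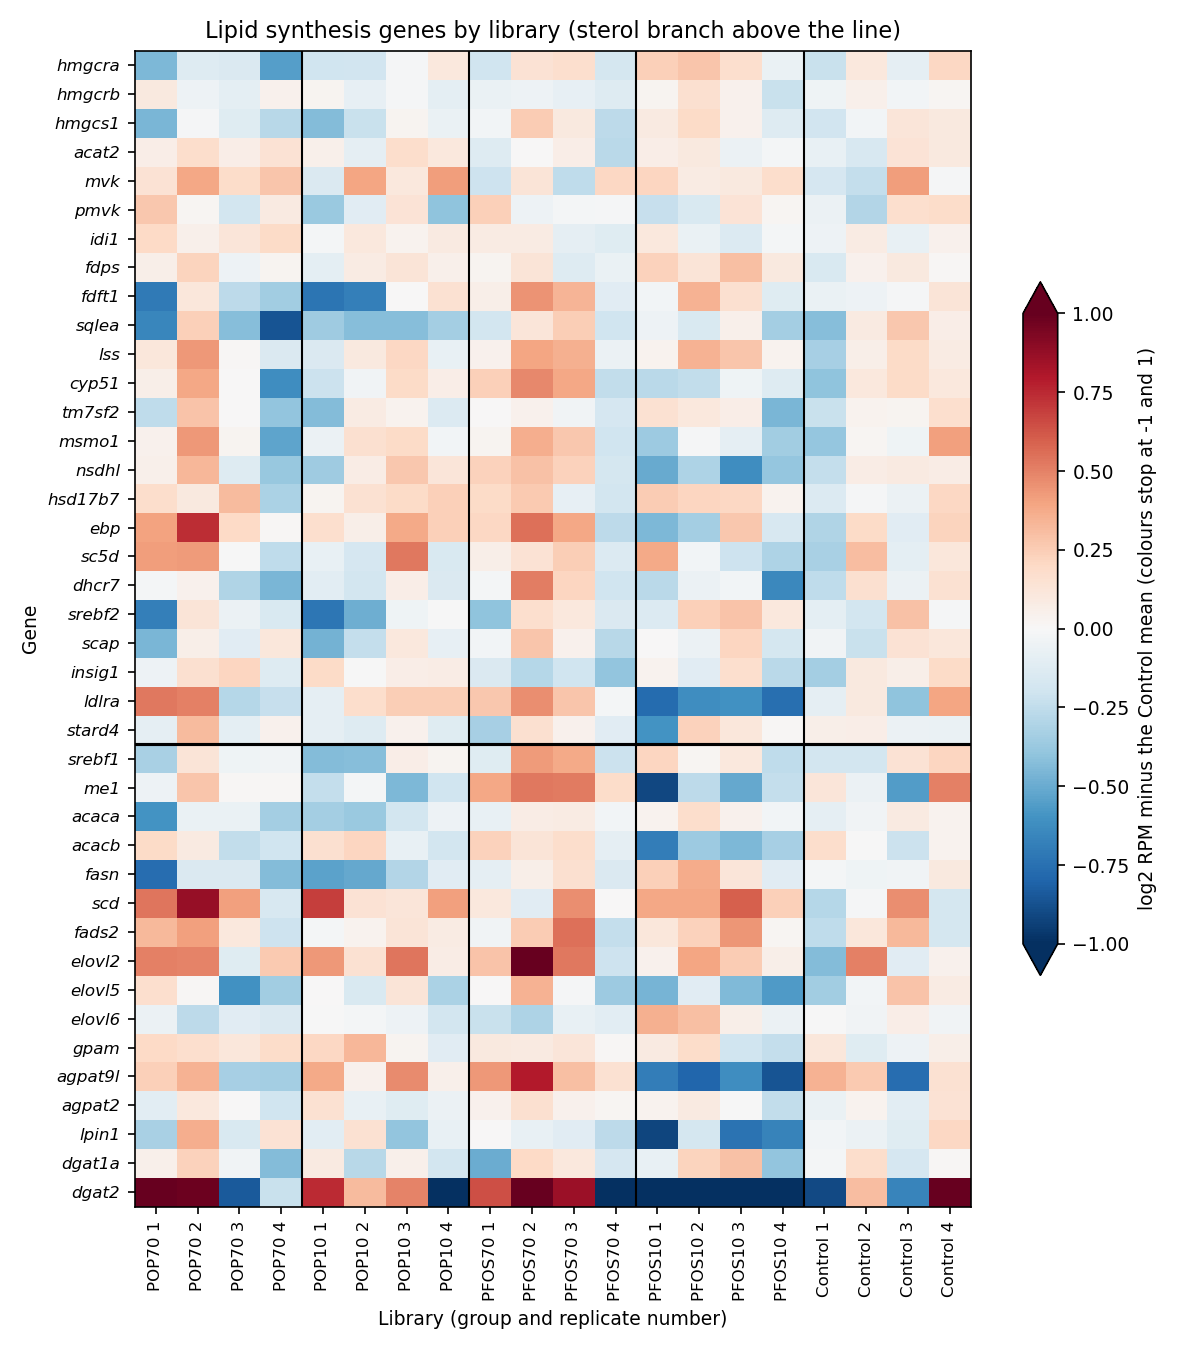
Deviation of each of the 40 tested genes (rows) from its Control mean in each of the 20 libraries (columns), as a log2 difference in RPM, with colours that stop at -1 and 1. In the 4 PFOS10 libraries ldlra, acacb, agpat9l, lpin1 and dgat2 are blue, and in the 8 mixture libraries fasn is blue.

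The first question was what each exposure did relative to solvent. In PFOS10 larvae 4 of the 40 genes fell and 0 rose: lpin1, acacb and agpat9l of the fatty acid and triglyceride branch, and the lipoprotein receptor gene ldlra. This was 10.0% of the members, near the 8.25% of all genes tested that passed in PFOS10 against Control (1.28% higher and 6.97% lower). In the other exposures 0 of 40 members passed, where the share of all genes was 0.0156% in POP70, 0.0% in POP10 and 0.0% in PFOS70. limma voom on whole reads also called 0 of 40 in these 3. At an unadjusted p under 0.05 there were 9 members in PFOS10 (22.5%, against 25.4% of all genes) and 4 in POP70 (10.0%, against 10.2%), all 4 of them lower. There were 2 each in POP10 (5.0%, against 9.63%) and PFOS70 (5.0%, against 11.7%).

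By branch, 1 of 24 sterol genes and 3 of 16 fatty acid genes fell in PFOS10. None of the 19 sterol enzymes passed there, while 2 had an unadjusted p under 0.05, the isoprenoid enzyme gene fdps on the higher side and nsdhl on the lower. With library medians set equal, fdps passed as higher, where 11.5% of all genes passed. With array weights fdps passed as higher and nsdhl as lower, where 19.0% of all genes passed. The median log2 difference from Control in PFOS10 was -0.03 over the sterol branch, -0.01 over the fatty acid branch and -0.03 over all genes tested. In the other 3 exposures the sterol medians were 0.01 to 0.02 and the fatty acid medians -0.04 to 0.09, against 0.00 to 0.02 over all genes. The 9 early sterol enzymes, from thiolase to squalene synthase, ranged from -0.06 to 0.19 in PFOS10. The 10 late ones, from squalene epoxidase onward, ranged from -0.46 to 0.18. Of these 10, 8 were below 0, where 10486 of 19289 genes tested were, and only nsdhl had an unadjusted limma p under 0.05.

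**Figure D2:**
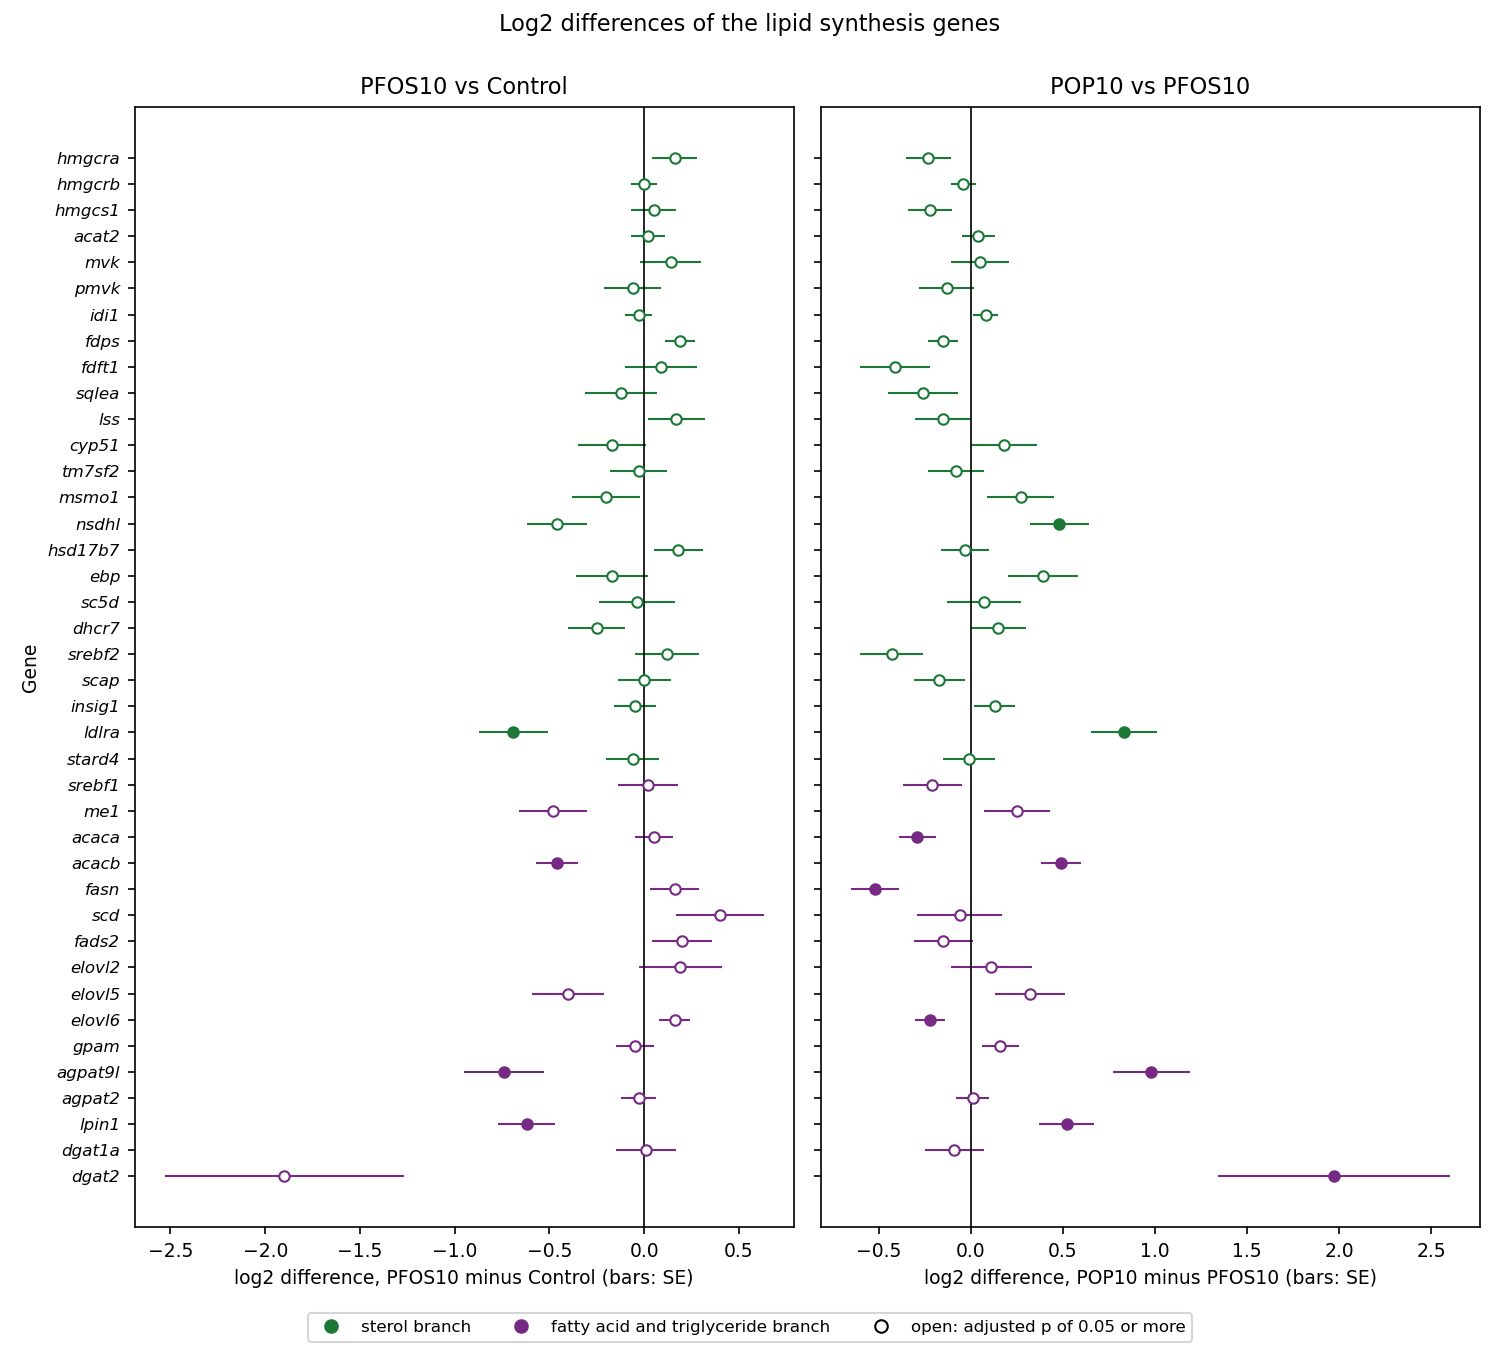
Log2 difference of each tested gene with its standard error (bars), PFOS10 minus Control on the left and POP10 minus PFOS10 on the right. Filled points have an adjusted p under 0.05; on the left these are 4 genes below 0, and on the right 6 above and 3 below, 7 of the 9 from the fatty acid and triglyceride branch.

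Triglyceride assembly held 2 of the 4 genes lower in PFOS10. lpin1 encodes a phosphatidate phosphatase that makes diacylglycerol, and lies on chromosome 17, 30442518 to 30470271 (GRCz11, as are all positions here). Its level was 5.78, 6.52, 5.96 and 6.03 log2 RPM in the PFOS10 libraries, against 6.67, 6.64, 6.57 and 6.90 log2 RPM in Control. Every PFOS10 value was below every Control value, though PFOS10 replicate 2 came within 0.05 of the lowest. The log2 difference was -0.62 ± 0.15 (SE, limma adjusted p = 0.0175), a 1.54-fold lower level. The call was lost when PFOS10 replicate 1, PFOS10 replicate 3 or Control replicate 4 was left out, with a limma adjusted p of up to 0.075. Fewer of all genes passed in those fits too, 3.74%, 3.83% and 1.9% in turn, against 8.25% with all libraries. All 4 transcript rows of lpin1 were lower in PFOS10, by log2 differences of -0.62 to -0.84, each with a limma adjusted p under 0.05 when all transcripts were tested. Rows of 1 gene may count the same reads, so their agreement is not separate evidence. The lpin1 level was 6.37 to 7.06 in POP70, 6.30 to 6.85 in POP10 and 6.43 to 6.70 log2 RPM in PFOS70.

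agpat9l is named for mammalian AGPAT9, an older symbol of glycerol-3-phosphate acyltransferase 3, which starts glycerolipid assembly; it lies on chromosome 5, 8919698 to 8957068. It stood at 2.93, 2.83, 3.0 and 2.76 log2 RPM in PFOS10 libraries, against 3.97, 3.88, 2.86 and 3.77 log2 RPM in Control. The groups overlapped through Control replicate 3, which lay among the PFOS10 values. The log2 difference was -0.74 ± 0.21 (SE, limma adjusted p = 0.0361), and the call was lost in 7 of the 8 fits without 1 library (adjusted p up to 0.116) and in 6 other settings. Without Control replicate 3 the adjusted p was 0.00344. Levels in the other exposures were 3.28 to 3.97 in POP70, 3.66 to 4.09 in POP10 and 3.77 to 4.41 log2 RPM in PFOS70, all above the highest PFOS10 library.

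dgat2 encodes the acyltransferase that completes triglyceride (chromosome 10, 32501961 to 32524035). Its PFOS10 levels were 0.52, 0.36, 0.48 and -1.32 log2 RPM, against 1.01, 2.22, 1.25 and 3.17 log2 RPM in Control. These rest on 4 to 14 reads in PFOS10 and 22 to 91 reads in Control, and the groups did not overlap. The log2 difference of -1.90 ± 0.63 (SE) had a limma adjusted p of 0.0628 and did not pass. Its spread within groups was a pooled SD of 1.02 on the log2 scale, larger than that of 99.3% of genes tested. The other acyltransferase genes of the list, gpam, agpat2 and dgat1a, had log2 differences of -0.05, -0.02 and 0.01 in PFOS10.

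Of the genes of chain synthesis, acacb fell in PFOS10. It encodes the acetyl-CoA carboxylase whose malonyl-CoA, in mammals, restrains the entry of fatty acids into mitochondria, and lies on chromosome 5, 19343880 to 19383694, near the mevalonate kinase gene mvk at 19494198 to 19509695. acacb stood at 6.19, 6.52, 6.43 and 6.55 log2 RPM in PFOS10, against 7.06, 6.88, 6.67 and 6.92 log2 RPM in Control. Every PFOS10 library was below every Control library, and below every library of the other exposures, which spanned 6.64 to 7.11. The log2 difference was -0.46 ± 0.11 (SE, limma adjusted p = 0.0206); it was lost without PFOS10 replicate 1, Control replicate 1 or Control replicate 4, with an adjusted p of up to 0.0708. Both transcript rows of acacb were lower, by -0.46 and -0.52, and may likewise count the same reads. mvk, its neighbour, had a log2 difference of 0.14 ± 0.16.

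The genes acaca and fasn, the cytosolic acetyl-CoA carboxylase and the fatty acid synthase of de novo lipogenesis, were not lower in PFOS10, with log2 differences of 0.05 ± 0.10 and 0.16 ± 0.13 from Control. They were the members of smallest p in both mixture groups. fasn, on chromosome 12, 33395748 to 33450512, stood at 6.76, 7.38, 7.38 and 7.09 log2 RPM in POP70 and 6.99, 7.01, 7.23 and 7.41 in POP10, against 7.50, 7.48, 7.49 and 7.62 in Control. All 8 mixture libraries were below all 4 Control libraries in the row used, fasn-203. In POP70 fasn-201, fasn-204 and fasn-205 had log2 differences of -0.40, -0.61 and -0.31 from Control, while fasn-202 had 0.08 ± 0.11. The log2 difference of fasn-203 was -0.37 ± 0.13 in POP70 (limma adjusted p = 0.409) and -0.36 ± 0.13 in POP10 (adjusted p = 0.51), and neither passed. acaca, on chromosome 5, 56308622 to 56412262, had 6.67, 7.20, 7.20 and 6.93 log2 RPM in POP70 and 6.93, 6.90, 7.08 and 7.22 in POP10, against 7.18, 7.23, 7.36 and 7.30 in Control. Its groups overlapped, and the log2 differences of -0.27 ± 0.10 and -0.23 ± 0.10 (adjusted p = 0.414 and 0.51) did not pass. These 2 comparisons share the Control libraries.

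**Figure D3:**
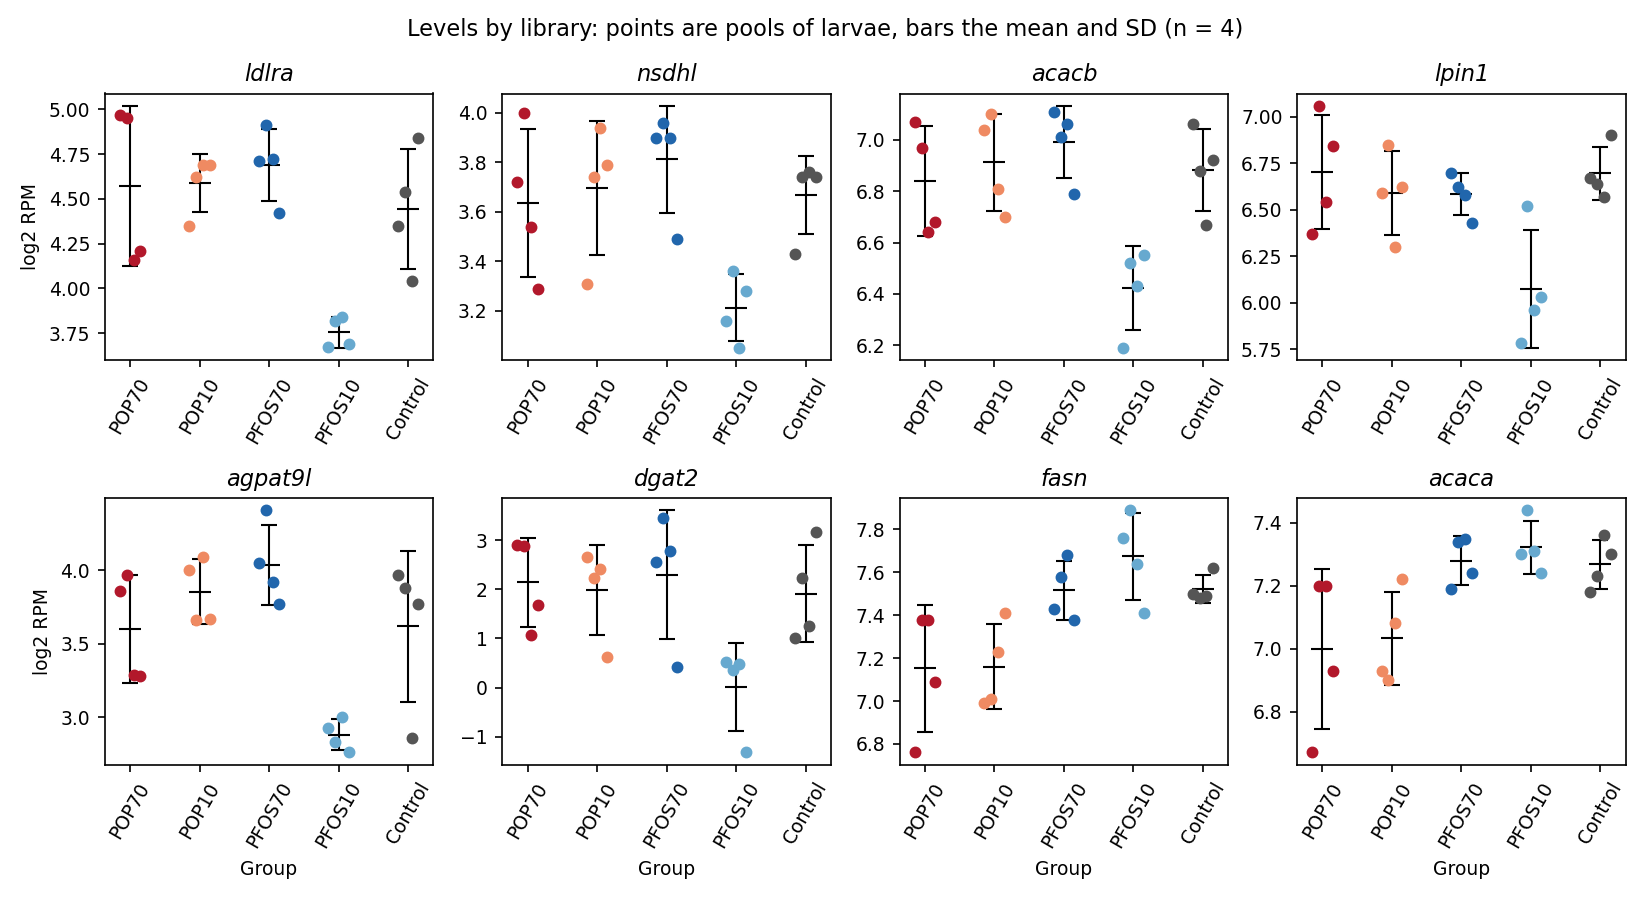
Level of 8 genes in log2 RPM, 1 point per library and bars for the mean and SD (n = 4), with a separate vertical scale for each gene that does not start at 0. For ldlra, nsdhl, acacb, lpin1, agpat9l and dgat2 PFOS10 has the lowest group mean; for fasn all POP70 and POP10 points lie below the Control points.

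Substrate supply and chain modification gave no calls against Control. me1, the malic enzyme that supplies NADPH for lipogenesis, stood at 2.98 to 3.65 log2 RPM in PFOS10 and 4.07 to 4.42 in PFOS70, against 3.33 to 4.39 in Control. Its log2 differences were -0.48 ± 0.18 in PFOS10 (limma adjusted p = 0.0952) and 0.40 ± 0.18 in PFOS70 (adjusted p = 0.389). elovl6, which lengthens 16-carbon chains, was 6.14 to 6.34 log2 RPM in POP70 and 6.09 to 6.33 in PFOS70, against 6.37 to 6.47 in Control. Neither exposed group overlapped Control, but the log2 differences of -0.14 ± 0.08 and -0.17 ± 0.08 did not pass (limma adjusted p = 0.552 and 0.427). The desaturase gene scd was low, at 17 to 35 reads per library, and its log2 differences from Control were 0.12 to 0.41 over the 4 exposures. For the regulator srebf1 they were -0.19 to 0.12. The genes of long-chain polyunsaturated fatty acids had log2 differences in PFOS10 of 0.20 for the desaturase gene fads2, 0.19 for the elongase gene elovl2 and -0.40 for elovl5 (limma adjusted p = 0.187).

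In the sterol branch, ldlra takes up low-density lipoprotein at the cell surface and lies on chromosome 3, 19299309 to 19321404. Its level was 3.67, 3.82, 3.84 and 3.69 log2 RPM in PFOS10, against 4.35, 4.54, 4.04 and 4.84 log2 RPM in Control. The 4 PFOS10 libraries lay close together, below all Control libraries and below the 4.16 to 4.97 of the other exposures. The log2 difference was -0.69 ± 0.18 (SE, limma adjusted p = 0.0248), a 1.61-fold lower level. Its call was lost without PFOS10 replicate 1, Control replicate 2 or Control replicate 4 (adjusted p up to 0.108), with 16 RPM added before the log (-0.36, adjusted p = 0.057) and with limma voom on whole reads (-0.66, 0.0505). Its second transcript row had a difference of -0.78 with an adjusted p of 0.0638.

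nsdhl, a dehydrogenase that removes methyl groups from sterol intermediates (chromosome 14, 14646717 to 14659127), stood at 3.16, 3.36, 3.05 and 3.28 log2 RPM in PFOS10, against 3.43, 3.74, 3.76 and 3.74 in Control. The groups did not overlap, but the log2 difference of -0.46 ± 0.16 did not pass (limma adjusted p = 0.07). The rate-limiting enzyme gene hmgcra was 5.97 to 6.31 in PFOS10 and 5.48 to 5.90 in POP70, against 5.81 to 6.24 log2 RPM in Control. Its difference in POP70 was -0.32 ± 0.12 (limma adjusted p = 0.425), beside -0.22 ± 0.12 for hmgcs1, which makes its substrate, and -0.42 ± 0.19 for the squalene epoxidase gene sqlea. None of these passed, nor did srebf2 (-0.31 to 0.12 over the 4 exposures) or insig1 (-0.25 to 0.08). scap, whose protein escorts Srebf proteins, and stard4, of a sterol carrier, had log2 differences of 0.00 and -0.06 in PFOS10. In PFOS10 the groups did not overlap for 5 of 40 members, where 12% of all genes were so; these were nsdhl, ldlra, acacb, lpin1 and dgat2. They did not overlap for fasn and elovl6 in POP70 (5.57% of all genes), for fasn in POP10 (6.94%), and for elovl6 and the reductase gene hmgcrb in PFOS70 (7.11%), each lower than Control.

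Beside these genes, the PFOS10 libraries were lower in markers of liver, gut and pancreas. All 18 hepatocyte markers had a lower mean in PFOS10 than in Control and 13 passed, with a median log2 difference of -1.43 and a summed level of 10.23 to 10.90 log2 RPM in PFOS10, against 10.94 to 12.28 in Control. Of 15 enterocyte markers 6 were lower (median -1.35, summed level 8.60 to 9.47 in PFOS10, against 9.40 to 10.64 in Control), and of 18 markers of exocrine pancreas 7 were lower (median -1.61, summed level 6.25 to 7.96, against 8.36 to 9.67). Of 12 fibroblast and cartilage markers 5 were lower (median -0.56, summed level 12.55 to 13.19, against 13.11 to 13.41), and of 12 keratinocyte markers also 5 (median -0.67, summed level 13.55 to 14.90, against 14.58 to 14.68). None of 15 neuron markers (median 0.23, summed level 12.78 to 13.19, against 12.72 to 12.97) and none of 15 skeletal muscle markers (median -0.12, summed level 16.98 to 17.56, against 17.26 to 17.47) passed. Of all genes tested 6.97% were called lower in PFOS10. Every PFOS10 library lay below every Control library for 4 of 18 hepatocyte, 5 of 15 enterocyte and 9 of 18 exocrine pancreas markers. This was so for 7 of 12 fibroblast and cartilage markers, 1 of 12 keratinocyte markers and no neuron or skeletal muscle marker. Of all genes 9.11% were so. In PFOS70 and in POP10 all 18 hepatocyte markers had a higher mean than in Control, and in POP70 16 of 18 had. The median log2 differences were 1.11, 0.39 and 0.27 in turn, and none of these markers passed there. No marker was at 0 reads throughout a group. The part of these tissues in the lower lipid genes was not tested.

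The second question was how the mixture differed from PFOS alone at the same level. In POP10 against PFOS10, 6 members were higher and 3 lower, 22.5% of the 40, where 31.4% of all genes passed (19.8% higher and 11.6% lower). This held 2 of 24 sterol genes and 7 of 16 fatty acid genes. Another scaling changed the balance: with library medians set equal 6 members were higher and 8 lower, and after quantile normalization 4 were higher and 1 lower. Of all genes 37.4% and 29.1% passed with these scalings. The members added with equal medians were hmgcra, hmgcs1, fdps, fdft1 and srebf2, all lower and all of the sterol branch. The split of calls between the branches therefore depends on the scaling. The medians of POP10 against PFOS10 were -0.02 over the sterol branch, 0.06 over the fatty acid branch and 0.04 over all genes. The regulator srebf2 was 8.08 to 8.80 log2 RPM in POP10, against 8.67 to 9.09 in PFOS10. Its log2 difference of -0.43 did not pass in the main fit. It did pass as lower with equal medians, array weights, a replicate block and limma voom on whole reads. Of all genes 37.4%, 42.3%, 33.2% and 29.8% passed in turn. Beside this, all 18 hepatocyte, 12 of 15 enterocyte, 12 of 18 exocrine pancreas, 11 of 12 fibroblast and cartilage, all 12 keratinocyte and 1 of 15 skeletal muscle markers were higher in POP10 than in PFOS10. Of 15 neuron markers 11 were lower in POP10. Summed hepatocyte levels were 11.46 to 12.04 log2 RPM in POP10 and 10.23 to 10.90 in PFOS10, and summed neuron levels 12.50 to 12.70 in POP10 and 12.78 to 13.19 in PFOS10; their part was not tested.

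The 6 higher genes were the 4 lower in PFOS10 than in Control, with dgat2 and nsdhl; both comparisons use the PFOS10 libraries. The log2 differences, POP10 minus PFOS10, were 1.97 ± 0.63 for dgat2 (SE, limma adjusted p = 0.0217) and 0.98 ± 0.21 for agpat9l (adjusted p = 0.0025). They were 0.83 ± 0.18 for ldlra (limma adjusted p = 0.00243) and 0.52 ± 0.15 for lpin1 (adjusted p = 0.0133). For acacb and nsdhl they were 0.49 ± 0.11 and 0.48 ± 0.16 (limma adjusted p = 0.00398 and 0.0231). The POP10 levels were 0.63 to 2.66 log2 RPM for dgat2, 4.35 to 4.69 for ldlra, 6.70 to 7.10 for acacb and 3.31 to 3.94 for nsdhl. The groups overlapped for lpin1 and nsdhl and for none of the other 4. With fasn and acaca, described next, 6 of 40 members had groups apart, where 25.2% of all genes did. The calls of ldlra, acacb and agpat9l held in every fit without 1 library. That of lpin1 was lost when either PFOS10 replicate 1 or POP10 replicate 2 was dropped (limma adjusted p up to 0.054), that of dgat2 when POP10 replicate 1, 2, 3 or PFOS10 replicate 4 was dropped (up to 0.0695), and that of nsdhl in 5 of 8 such fits (up to 0.0771), those lacking PFOS10 replicate 1, PFOS10 replicate 3 or POP10 replicate 2, 3 or 4. The dgat2 call was also lost with 16 RPM added before the log (log2 difference 0.25, limma adjusted p = 0.107), after quantile normalization (1.48, 0.0573) and with limma voom on whole reads (1.88, 0.0932). That of nsdhl was also lost after quantile normalization (0.28, limma adjusted p = 0.143).

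The 3 lower genes act in chain synthesis and elongation. fasn stood at 6.99, 7.01, 7.23 and 7.41 log2 RPM in POP10, against 7.76, 7.89, 7.64 and 7.41 in PFOS10, and the highest POP10 library and the lowest PFOS10 library met at the second decimal. The log2 difference was -0.52 ± 0.13 (SE, limma adjusted p = 0.00506), and it passed in each fit without 1 library. Its transcripts had unlike values: fasn-201 had a difference of -0.45 and fasn-203, the row used here, -0.52, while fasn-202 had 0.02 ± 0.11. acaca was lower in POP10, at 6.90 to 7.22 log2 RPM, against 7.24 to 7.44 in PFOS10, with a difference of -0.29 ± 0.10 (limma adjusted p = 0.0311). elovl6 was 6.22 to 6.40 in POP10, against 6.34 to 6.76 in PFOS10, with overlap and a difference of -0.22 ± 0.08 (limma adjusted p = 0.0491). With 1 library left out the acaca call was lost in 5 of 8 fits (adjusted p up to 0.1, without POP10 replicates 1 and 2 or PFOS10 replicates 1 to 3, each in turn) and the elovl6 call in 6 of 8 (up to 0.176, all but those without PFOS10 replicate 3 or 4) and in 6 other settings (up to 0.121). The carboxylase genes acacb and acaca differed in opposite directions in this comparison, as with equal medians; after quantile normalization acaca did not pass (-0.22, adjusted p = 0.0684).

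In POP70 against PFOS70, 0 of 40 members passed, where 0.181% of all genes did. At an unadjusted p under 0.05 there were 8 members, 20.0% where all genes gave 11.1%. The 5 on the lower side were fasn (-0.36 ± 0.13), acaca (-0.28 ± 0.10), hmgcra (-0.30 ± 0.12), the squalene synthase gene fdft1 (-0.48 ± 0.19) and sqlea (-0.42 ± 0.19), as log2 differences. The 3 on the higher side were insig1 (0.30 ± 0.11), the thiolase gene acat2 (0.20 ± 0.09) and the isomerase gene idi1 (0.15 ± 0.07). Of these, insig1 and acat2 had groups that did not overlap, where 5.74% of all genes were so: insig1 was 5.87 to 6.22 log2 RPM in POP70 and 5.61 to 5.86 in PFOS70, and acat2 was 5.76 to 5.87 in POP70, touching the highest of 5.42 to 5.76 in PFOS70 at the second decimal. limma adjusted p was 0.333 to 0.445 for all 8.

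The third comparison was between dose levels. In PFOS70 against PFOS10, 7 members were higher and 1 lower, 20.0% of the 40, where 34.4% of all genes passed (23.6% higher and 10.8% lower). With equal medians the split was 6 higher and 6 lower, and after quantile normalization 6 higher and 5 lower, so the balance of directions depends on the scaling. Of all genes 43.5% and 36.0% passed with these scalings. Equal medians added hmgcra, hmgcrb, acat2, fdps and insig1, all lower and all of the sterol branch. Quantile normalization added mvk, fdps and hsd17b7 of the sterol branch and scd of the fatty acid branch, all lower. In POP70 against POP10, 0 of 40 passed, as 0.0% of all genes did, and 0 of 40 had an unadjusted p under 0.05, where 3.01% of all genes did. Groups overlapped there for every member, while 1.94% of all genes had groups apart. In PFOS70 against PFOS10 all 18 hepatocyte, 12 of 15 enterocyte, 17 of 18 exocrine pancreas, all 12 fibroblast and cartilage, 11 of 12 keratinocyte and 2 of 15 skeletal muscle markers were higher. The other pancreas marker was lower, and of 15 neuron markers 2 were higher and 10 lower. Summed hepatocyte levels were 11.73 to 12.49 in PFOS70 and 10.23 to 10.90 log2 RPM in PFOS10, summed neuron levels 12.53 to 12.79 in PFOS70 and 12.78 to 13.19 in PFOS10, and their part was not tested either.

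The 7 genes higher in PFOS70 than in PFOS10 were dgat2 (log2 difference 2.29 ± 0.63), agpat9l (1.16 ± 0.21), ldlra (0.93 ± 0.18), me1 (0.88 ± 0.18), nsdhl (0.60 ± 0.16), acacb (0.57 ± 0.11) and lpin1 (0.51 ± 0.15), with limma adjusted p of 0.000421 to 0.0119. For ldlra the libraries were 4.71, 4.91, 4.72 and 4.42 log2 RPM in PFOS70, against 3.67, 3.82, 3.84 and 3.69 in PFOS10. For me1 they were 4.28, 4.42, 4.41 and 4.07 in PFOS70, against 2.98, 3.63, 3.38 and 3.65 in PFOS10. The groups were apart for ldlra, me1, agpat9l, acacb and nsdhl, and overlapped for dgat2, through PFOS70 replicate 4 at 0.42, and for lpin1, through PFOS10 replicate 2; with elovl6, 6 of 40 members had groups apart, where 29.3% of all genes did. The lower gene was elovl6, at 6.18, 6.09, 6.33 and 6.30 log2 RPM in PFOS70, against 6.76, 6.70, 6.46 and 6.34 in PFOS10, a log2 difference of -0.34 ± 0.08 (limma adjusted p = 0.00449). Of these 8 calls, lpin1 was lost without PFOS10 replicate 1 (adjusted p = 0.0514), and the others held in every fit without 1 library. The nsdhl call was lost after quantile normalization (0.36, limma adjusted p = 0.0526) and the lpin1 call with equal medians (0.37, 0.0526). With 16 RPM added before the log all 8 passed, where 33.6% of all genes did. Differences were smaller for genes of few reads: 0.36 for dgat2, 0.25 for nsdhl, 0.48 for agpat9l, 0.50 for ldlra and 0.42 for me1.

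The change from low to high level was also compared between the mixture and PFOS, as POP70 minus POP10 less PFOS70 minus PFOS10. It differed for 4 of 40 members, 10.0% where 15.9% of all genes passed, all 4 with a more positive step in PFOS. With equal medians 6 members passed, 3 of them (hmgcrb, fdps and elovl6) with a more positive step in the mixture, and after quantile normalization 3 passed, all with a more positive step in PFOS. These scalings called 22.3% and 12.5% of all genes in turn. Of all genes called, 16.6% were on the mixture's side, against 53.9% with equal medians and 41.8% after quantile normalization. The differences of log2 differences were -1.41 ± 0.30 for agpat9l (limma adjusted p = 0.00536), -0.64 ± 0.16 for acacb (0.0127), -0.95 ± 0.25 for ldlra (0.0167) and -0.65 ± 0.22 for nsdhl (0.0477). The nsdhl call was lost in 10 of 16 fits without 1 library (adjusted p up to 0.114), with libraries of all 4 groups among them, and in 8 other settings. The first 3 passed in every fit without 1 library and in the other settings tried.

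Taken as means per library, the branches overlapped between groups. The mean deviation from Control over the 24 sterol genes was -0.05 ± 0.09 in PFOS10, and over the 16 fatty acid genes -0.22 ± 0.16 (log2, SD, n = 4), beside -0.12 ± 0.05 over all genes tested. The sterol mean less the fatty acid mean was 0.07 to 0.26 in PFOS10, against -0.07 to 0.14 in Control. In POP70, POP10 and PFOS70 it averaged -0.02 ± 0.08, -0.02 ± 0.18 and -0.08 ± 0.08. The 4 PFOS10 values lay above the -0.15 to 0.03 of PFOS70. These values lean on dgat2: without it, the fatty acid mean in PFOS10 was -0.11 ± 0.12 over 15 genes, and the sterol mean less the fatty acid mean was 0.05 ± 0.06, at -0.03 to 0.10 in PFOS10, against -0.12 to 0.10 in Control. In PFOS70 it was then -0.11 to -0.04. No test was run on these means.

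**Figure D4:**
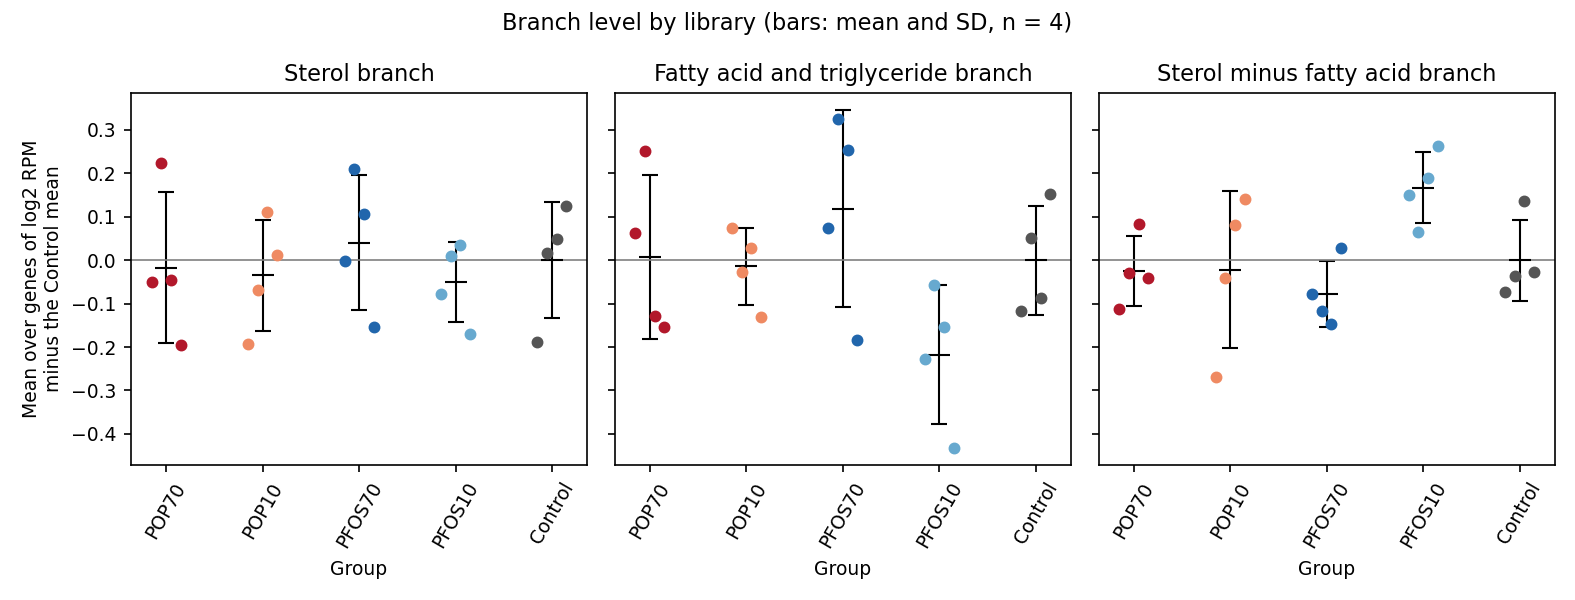
Mean over genes of the deviation from the Control mean (log2 RPM) in each library, for the sterol branch, the fatty acid branch and the sterol mean less the fatty acid mean, with bars for the group mean and SD (n = 4). The PFOS10 points of the third panel, 0.07 to 0.26, overlap the Control points, -0.07 to 0.14; dgat2 is included.

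Other genes of these pathways, listed apart from the members, were read in the same fits. Of 29 further genes of sterol synthesis, storage and transport, 0 rose and 3 fell in PFOS10: mylipb, of the ubiquitin ligase family that degrades the LDL receptor (log2 difference -1.02 ± 0.20, limma adjusted p = 0.00666), the cholesterol exporter gene abca1b (-0.83 ± 0.16, 0.00731) and cyp7a1, the rate-limiting enzyme of bile acid synthesis (-1.42 ± 0.38, 0.0295). For cyp7a1 the libraries were 3.16, 3.10, 3.05 and 1.63 log2 RPM in PFOS10, against 3.96, 4.31, 3.60 and 4.75 in Control, with no overlap. Of 57 further genes of lipogenesis and triglyceride handling, 2 rose and 10 fell. Of all genes tested 1.28% were higher and 6.97% lower in PFOS10, and the median log2 difference was -0.12 over the 29 genes and -0.16 over the 57, against -0.03 over all genes. Those that fell included the adipogenic regulator pparg (-1.48 ± 0.38, 0.0223), mttp, which loads lipid onto apolipoprotein B (-1.47 ± 0.40, 0.0309), and the citrate carrier gene slc25a1b (-1.34 ± 0.31, 0.0153). For pparg and mttp the PFOS10 and Control groups overlapped, and for slc25a1b they did not. The pparg levels rest on 9 to 36 reads in PFOS10 and 38 to 59 in Control, and mttp had an SD of 0.98 in PFOS10. The others that fell were cideb, pnpla3, pnpla2, idh1, elovl7a, mid1ip1a and hsd17b12a, with log2 differences of -1.24 to -0.39. Those that rose were gpat4, another glycerol-3-phosphate acyltransferase gene (0.21 ± 0.06, 0.0474), and mid1ip1b, whose mammalian counterpart binds acetyl-CoA carboxylase (0.26 ± 0.06, 0.0194). The groups overlapped for gpat4 and not for mid1ip1b. The like-named gene mid1ip1a went the other way, with a log2 difference of -0.45 ± 0.13 (limma adjusted p = 0.0438). In POP70, POP10 and PFOS70 none of these 29 and 57 genes passed against Control. The genes aclya and aclyb, in the table in place of acly, and scdb, a desaturase gene beside scd, had log2 differences of -0.07, -0.41 and 0.06 in PFOS10 and did not pass (limma adjusted p = 0.551, 0.163 and 0.775).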

How the data were processed

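RNA sequencing of 20 pools of whole larvae was read from 1 table of 48838 transcripts. The deposited values are log2 RPM with 0 reads written as 0.9 reads, as read from the values: 100% of those between 1 and 1000 reads came out whole within 0.05 reads. The submitters' processing notes name STAR 2.5.4b, Trim Galore 0.4.5, R 3.5.0, DESeq2 and build GRCz11, in no stated role. The counting step and its strand setting are not given in the sources used here. Reads of overlapping or closely alike genes (acaca and acacb, hmgcra and hmgcrb, for example) may therefore be split between them or counted in more than 1 row. Columns sum to 3126704 to 3390337 RPM, and the reason is not stated. The rows hmgcra-201 and hmgcra-203 both had a mean of 5.98 log2 RPM, so rows of 1 gene may count the same reads. The row of highest mean stood for each gene; 15 members had 1 row.

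Groups were taken from the labels. limma 3.58.1 in R 4.3.3 fitted 1 model over 20 libraries with group as its only term, a variance trend, 15 residual degrees of freedom and two-sided moderated tests, with no further pseudocount. Benjamini-Hochberg adjustment ran over 19289 genes within each comparison. The code was tested on simulated data. Genes named in full are members called in any pairwise comparison, a list of control points, and the 3 of smallest p against Control; others described were chosen after their values were seen. The members, lists and comparisons were chosen with earlier results of these data known. The labels do not say that replicate numbers pair the libraries, and the main model did not pair them. Alternatives were other filters, damping by 16 RPM, 2 scalings, no trend, array weights, a replicate block, only the groups compared, summed transcripts, each library left out, the PFOS10 libraries left out, limma voom on whole reads and, chosen after seeing the data, every transcript and the branch means without dgat2. Errors given are the spread among pools, as SD, or the standard error of a fitted difference. Marker lists of 7 cell types were counted in the same fits.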

Additional observations from a re-analysis of the deposited data

Results flagged for a closer look

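Among 90 groups of 4 libraries looked at for the 18 tested genes named by rule, 4 held a library far from the other 3. Chance flags about 1 in 20 groups. dgat2 was -1.32 log2 RPM in PFOS10 replicate 4, against 0.36 to 0.52 in the others. nsdhl was 3.49 in PFOS70 replicate 4, against 3.90 to 3.96, and 3.43 in Control replicate 1, against 3.74 to 3.76. fasn was 7.62 in Control replicate 4, against 7.48 to 7.50.

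The step from low to high level differed between the mixture and PFOS, as a limma interaction on the log2 scale, for agpat9l (-1.41, adjusted p = 0.00536), acacb (-0.64, 0.0127), ldlra (-0.95, 0.0167) and nsdhl (-0.65, 0.0477). The PFOS10 libraries enter each of these differences. Their summed hepatocyte markers were 10.23 to 10.90 log2 RPM, against 10.94 to 12.28 in Control, and the part of this in the differences was not tested.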

How the results depend on the processing

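No call of a single member changed direction past the threshold, while the balance of higher and lower calls moved with the scaling. In PFOS10 against Control the 4 members called became 2 with damped values, 7 with array weights and 2 with limma voom on whole reads. The share of all genes called moved as well, from 8.25% to 3.97%, 19.0% and 4.88% in turn. With 1 library left out the members called were 0 to 5: 0 without PFOS10 replicate 1 or Control replicate 4, and 2 without PFOS10 replicate 3, Control replicate 1 or Control replicate 2. Without PFOS10 replicate 1, 3.74% of all genes passed, and without Control replicate 4, 1.9%. In the fits with 2 members the share was 3.4% to 3.83%. In POP10 against PFOS10 the 9 became 5 after quantile normalization and 14 with equal medians, and 4 to 9 with 1 library left out, the fewest without POP10 replicate 2. Of all genes 29.1% and 37.4% passed with these scalings and 22.9% without POP10 replicate 2, against 31.4% in the main fit. With equal medians the sterol median in PFOS70 against PFOS10 was -0.13, where the median of all genes shifted by -0.14 on the log2 scale, to -0.10; quantile normalization shifted it by -0.14 too, and in POP10 against PFOS10 both scalings shifted it by -0.10. Of all genes called in PFOS10 against Control, 15.5% were higher, against 51.0% with equal medians and 32.2% after quantile normalization. The labels do not say whether a replicate number marks a shared clutch or day. Deviations of each gene from its group mean were correlated between libraries of different groups. For same-numbered libraries these correlations were -0.222 to 0.251, with a median of 0.0388, against a median of -0.0186 for other numbers. Of 20 libraries, 5 were closest to their own number. With the number as a replicate block, 5 members passed in PFOS10 against Control, where 10.2% of all genes did. There were 10 in POP10 against PFOS10 (33.2% of all genes) and 9 in PFOS70 against PFOS10 (35.9%). In the other comparisons with Control, in POP70 against PFOS70 and in POP70 against POP10, 0 members passed in any alternative. Genes of few reads, dgat2, scd and mlxipl, are limited by depth. The stricter filter, a mean of at least 3 log2 RPM, left mvk, sc5d, scd, elovl5 and dgat2 untested.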
